A study of Mus musculus with 7 samples.

Results

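A set of 10 genes that shape the storage granules of platelets was followed here: Nbeal2, Vps33b, Lyst, Hps1, Hps3, Hps4, Hps5, Hps6, Ap3b1 and Ap3d1. Their members on the array were all probe sets whose single gene symbol is one of these 10 names, which gave 19 probe sets for the 10 genes among 45101 probe sets and 18193 named genes in all. Of these, 4 genes (Vps33b, Hps4, Hps5 and Hps6) had 1 probe set each and the other 6 genes had several. Wild-type C57Bl/6J mice, 6 to 12 weeks of age, gave marrow cells that were sorted into lots of 1800 to 10000, and amplified RNA of each lot was hybridised to 1 of 7 Affymetrix mouse expression arrays. The CD54+CD31-BP1+ population, labelled as stromal cells, has 4 arrays, called BP1+ 1 to 4 here. The CD54-CD31+ population, labelled as endothelial cells, has 3 arrays, called CD31+ 1 to 3. Both populations were gated as CD45- and lineage-negative, and neither carried a transgene or received a treatment that the labels name. Values are deposited log2 expression values, and a difference is always BP1+ minus CD31+ on the log2 scale.

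Platelets and their parent cells, the megakaryocytes, keep 2 kinds of storage granule. Alpha granules hold adhesion proteins and chemokines such as von Willebrand factor and platelet factor 4, and dense granules hold serotonin, nucleotides and calcium. Both form from endosomes and multivesicular bodies, and dense granules share sorting steps with the melanosomes of pigment cells. Loss of NBEAL2 in humans causes grey platelet syndrome, in which alpha granules are missing. Loss of a subunit of the complexes BLOC-2, BLOC-3 or AP-3 causes forms of Hermansky-Pudlak syndrome, in which dense granules are missing and pigmentation is pale.

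The label stromal matched its markers and the label endothelial did so only in part. All 8 genes fixed as reticular stroma markers were higher on the BP1+ arrays. All 10 megakaryocyte and platelet markers matched on the array were lower on the BP1+ arrays, where their mean level was 5.82 to 8.40, against 13.42 to 13.80 on the CD31+ arrays. Of 12 endothelial markers 3 were lower on the BP1+ arrays and 9 were not called either way. The 4 endothelial genes Cdh5, Emcn, Tek and Tie1 lay below the 40th percentile of every CD31+ array, while Pecam1, the gene of the gated antigen CD31, averaged 4.93 on the BP1+ and 8.41 on the CD31+ arrays. Of 9 neutrophil precursor markers 6 were lower on the BP1+ arrays, with a mean of 7.84 to 10.09 there and of 9.54 to 12.55 on the CD31+ arrays. Of 5 mast cell and basophil markers 3 were lower, with a mean of 5.17 to 6.08 on the BP1+ and of at least 7.43 on the CD31+ arrays. Of 6 monocyte and macrophage markers 4 were lower and 1 higher (means of 6.36 to 7.56 on the BP1+ and 8.44 to 9.58 on the CD31+ arrays). Of 5 B-lineage markers 3 were lower and 1 higher (6.94 to 7.89 on the BP1+ and 7.41 to 9.30 on the CD31+ arrays), and of 3 erythroid markers 2 were lower (5.95 to 6.52 and 6.67 to 7.69). Several of these cell types carry lysosome-related granules of their own, and their part in the results below was not tested. The array BP1+ 4 had the highest megakaryocyte mean of its group, 8.40 against 5.82 to 6.53 on the other BP1+ arrays. It was not alone in every marker: Pf4 read 9.70, 6.58, 6.61 and 9.73 on BP1+ 1 to 4. The hybridisation controls, which report spiked-in label, averaged 9.51 to 9.67 on the BP1+ arrays and 9.75, 11.33 and 11.37 on CD31+ 1, 2 and 3. The 3' minus 5' difference of the Gapdh control was 3.07 to 3.51 on the BP1+ arrays and 2.54, 3.50 and 2.37 on CD31+ 1, 2 and 3, and that of the Actb control was 1.30 to 1.79 on the BP1+ arrays and 0.65, 1.49 and 0.96 on CD31+ 1, 2 and 3. In both controls CD31+ 1 and 3 lay below every BP1+ array and CD31+ 2 lay among them.

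A probe set was called where limma gave an adjusted p under 0.05 and the difference was at least 1 on the log2 scale. Of all 45037 probe sets that are no controls, 29.6% were called, 17.3% as higher and 12.3% as lower on the BP1+ arrays. Of the 19 granule probe sets 6 were called (31.6%), 3 as higher and 3 as lower, which is near the share over the whole array. With each gene taken by its probe set of the highest mean, 4 of the 10 genes were called: Hps3 and Hps5 as higher and Nbeal2 and Lyst as lower, beside 38.8% of all genes. The groups did not overlap in 10 of the 19 probe sets (52.6%), beside 60.7% of all probe sets. In 8 of the 10 all BP1+ arrays were the lower ones, as in 40% of all probe sets, and in 2 the higher ones, as in 20.7% of all probe sets. The median difference was -0.22 over the 19 probe sets and -0.31 over all probe sets. The 11248 probe sets at or below the 40th percentile on all 7 arrays had a median of -0.45, so small negative differences of dim probe sets lie on top of that shift. In such sorted bulk samples, fewer cells of a type and less RNA per cell cannot be told apart.

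**Figure D1:**
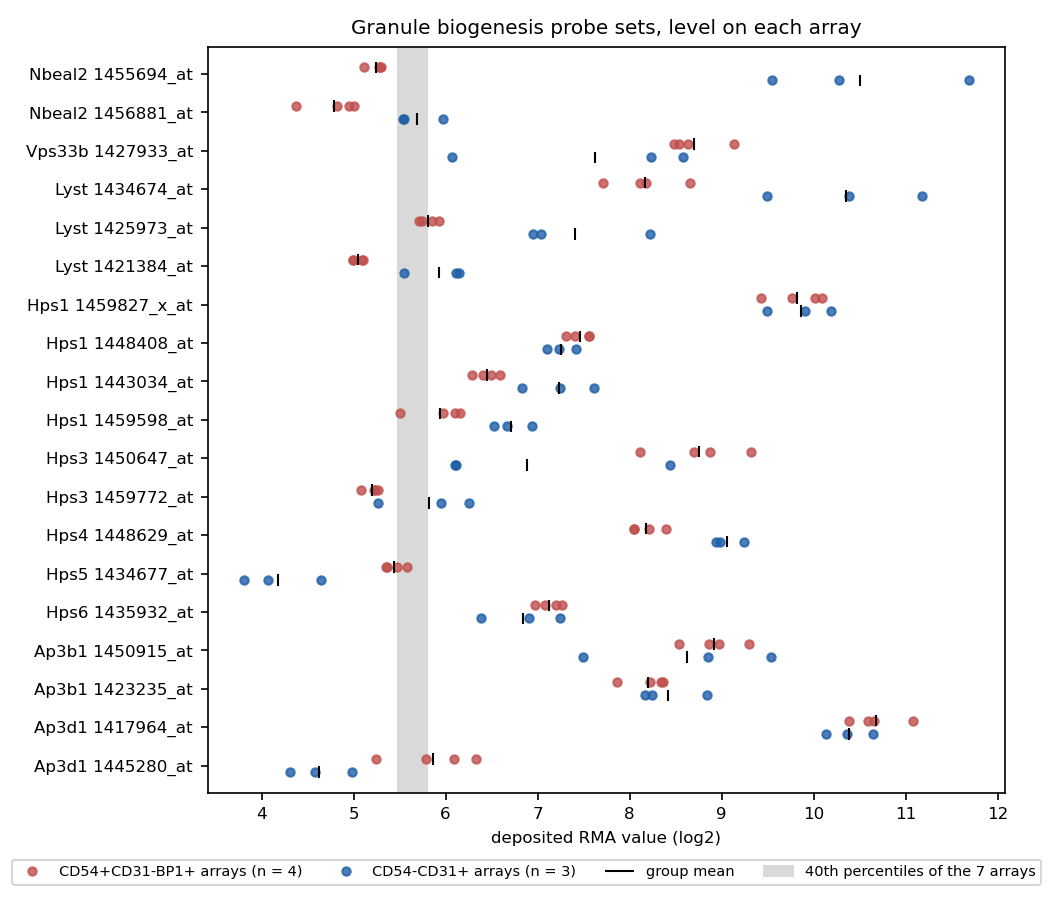
Level of each of the 19 granule probe sets on each array, as deposited log2 values. Points are arrays, with CD54+CD31-BP1+ above CD54-CD31+ within a row, black ticks are group means and the grey band spans the 40th percentiles of the 7 arrays. Nbeal2 1455694_at has the widest gap between the groups, with means of 5.24 on the BP1+ and 10.50 on the CD31+ arrays.

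The stretches of DNA before 3 of the called genes are given because these genes took opposite directions, Nbeal2 and Lyst lower and Hps5 higher on the BP1+ arrays. They come from RefSeq promoters of mouse build GRCm38.p6, limited to bases that lie in no annotated protein-coding gene, and read 5′ to 3′ along the strand of the gene. Capitals mark the GC box GGGCGG, the CCAAT box or the E-box CACGTG, on either strand.
Nbeal2, chr9:110654162-110654307, minus strand, 146 bases: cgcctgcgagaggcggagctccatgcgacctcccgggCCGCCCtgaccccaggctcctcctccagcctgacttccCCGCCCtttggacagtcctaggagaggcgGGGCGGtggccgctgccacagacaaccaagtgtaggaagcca
Lyst, chr13:13590159-13590310, plus strand, 152 bases: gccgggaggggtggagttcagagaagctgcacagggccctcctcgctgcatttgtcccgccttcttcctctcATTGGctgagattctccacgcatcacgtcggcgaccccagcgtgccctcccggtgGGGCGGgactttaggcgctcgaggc
Hps5, chr7:46796066-46796093, minus strand, 28 bases: gccgGGGCGGgcctccggagCACGTGac
Nbeal2 and Lyst share the GC box and lack an E-box in these stretches, while the short Hps5 stretch holds both. It lies away from the gene start, with its GC box from -208 and its E-box from -192. Hps3, the other gene called higher, has a stretch of 226 bases, not printed, that holds none of the marked motifs. The E-box of Hps3 lies outside that stretch, from -15. The GC box was also before Ap3b1, Hps1 and Hps6, which were not called. Whether any motif goes with a direction was not tested.

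A search for 6 motifs covered both strands of the 250 bases before each start. Of the 10 genes 9 matched a RefSeq window, with 10 windows in all since Hps1 has 2. The GC box GGGCGG was in 6 of the 10 windows and in 32.7% of all 32851 windows, with 3 copies each before Nbeal2 and Lyst. CCAAT was in 2 windows (Lyst and Ap3d1) and in 33.8% of all. The E-box CACGTG, to which MITF and TFE factors bind, was in 2 windows (Hps3 and Hps5) and in 6.0% of all, with 2 copies before Hps5. The GATA motif AGATAA was in 1 window (Ap3d1) and in 10.0% of all, the ETS motif CCGGAA in 2 (Hps5 and Ap3d1) and in 12.0%, and the NF-E2 core TGAGTCA in 0 and in 4.5%. CCGGAA lies next to an E-box before Hps5, and no motif overlaps another there.

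Nbeal2 had the largest difference of the 19 probe sets. It encodes a BEACH domain protein that retains cargo in developing alpha granules. Probe set 1455694_at read 5.27, 5.30, 5.11 and 5.28 on BP1+ 1 to 4, against 9.55, 10.28 and 11.69 on CD31+ 1 to 3. The groups did not overlap: the BP1+ arrays sat together at a dim level, at the 32.0 to 36.3 percentile of their arrays, and the CD31+ arrays were spread at the 92.1 to 97.4 percentile. The difference was -5.26 (95% interval -6.29 to -4.24, SE 0.44, limma adjusted p = 6.32e-05), and no fold is given because the BP1+ level lay below the 40th percentile on all 4 arrays. The array BP1+ 4, which had the highest megakaryocyte mean of the BP1+ arrays, did not stand out in Nbeal2. The difference was -5.28 without BP1+ 4. Among the 5 arrays with low hybridisation controls, in which CD31+ 1 is the single CD31+ array and is taken to vary like the others, it was -4.30 (adjusted p = 6.72e-05).

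The other Nbeal2 probe set, 1456881_at, was dim on nearly all arrays. It read 4.37, 5.01, 4.82 and 4.95 on the BP1+ arrays, against 5.54, 5.98 and 5.55 on the CD31+ arrays. The groups did not overlap either, but 1 array alone, CD31+ 2, lay above its 40th percentile. Its difference of -0.90 (adjusted p = 0.00881) was short of the size a call requires.

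The 5 genes whose profile over the 7 arrays lay nearest to Nbeal2 1455694_at, by Euclidean distance between values centred on each gene's mean, were Slc22a23, Ccdc181, Tnnt1, Trim37 and Tnfsf14, at distances of 0.65, 0.76, 0.86, 0.92 and 0.94. Slc22a23, a gene of the organic ion transporter family, read 6.72, 6.63, 6.37 and 6.93 on the BP1+ arrays, against 11.28, 11.89 and 12.66 on CD31+ 1 to 3. In all 5 genes CD31+ 3 was the highest array, as it was for Nbeal2. Because the genes were picked for nearness to these Nbeal2 values, a shared highest array follows largely from that choice.

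Lyst was lower on the BP1+ arrays in 2 of its 3 probe sets. It encodes the other BEACH domain protein among the members, a regulator of lysosome and granule size that is mutated in Chediak-Higashi syndrome and in the beige mouse. Probe set 1434674_at read 8.18, 8.11, 7.71 and 8.66 on BP1+ 1 to 4, against 10.39, 9.49 and 11.18 on CD31+ 1 to 3. Every array was well inside the measured range and the groups did not overlap, although BP1+ 4 was the highest BP1+ array and CD31+ 2 the lowest of its group. The difference was -2.19 (95% interval -3.10 to -1.27, adjusted p = 0.00319), a level 4.55-fold higher on the CD31+ arrays.

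Probe set 1425973_at of Lyst read 5.71, 5.85, 5.92 and 5.75 on the BP1+ arrays, against 6.95, 8.22 and 7.04 on the CD31+ arrays. Here CD31+ 2 was the highest array, in contrast to 1434674_at, where it was the lowest of its group. The difference was -1.60 (adjusted p = 0.00407), and with the hybridisation-control level as a block it was -1.14 with an adjusted p of 0.0712, not called. Both that block and the fit to the 5 low-control arrays compare CD31+ 1 alone with the BP1+ arrays, and the second, with the same -1.14, kept the call (adjusted p = 0.00334). The third probe set, 1421384_at, lay at 4.99 to 5.11 on the BP1+ arrays and at 5.54 to 6.14 on the CD31+ arrays, a difference of -0.88 (adjusted p = 0.00566) that was not called. All 3 Lyst probe sets thus had every BP1+ array below every CD31+ array, as did 40% of all probe sets. The third was dim, below the 40th percentile on all BP1+ arrays and on CD31+ 2. Its difference lay between -1.09 and -0.37 over 17 alternatives, and was smallest after cyclic loess (-0.37, adjusted p = 0.118).

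Vps33b, which encodes the SM family protein that works with VIPAS39 in alpha granule formation, was not called. Its probe set 1427933_at read 8.53, 8.64, 8.49 and 9.14 on the BP1+ arrays, against 8.23, 8.58 and 6.07 on CD31+ 1 to 3. The groups overlapped, and the low mean of the CD31+ arrays came from CD31+ 3. The difference was 1.07 (95% interval -0.22 to 2.37, adjusted p = 0.131). It was 0.29 without CD31+ 3, and 1.55 and called without CD31+ 2 (adjusted p = 0.0476).

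The 3 subunits of BLOC-2, a complex that directs cargo carriers to forming melanosomes and dense granules, are encoded by Hps3, Hps5 and Hps6. Hps3 is the gene of the cocoa mouse. Its probe set 1450647_at read 8.87, 8.70, 8.11 and 9.32 on the BP1+ arrays, against 6.10, 8.44 and 6.11 on CD31+ 1 to 3. CD31+ 1 and 3 were far below all BP1+ arrays, while CD31+ 2 lay among them. The 3' minus 5' differences of the Gapdh and Actb controls split the arrays in the same way, and their part in the Hps3 difference was not tested. The difference of 1.87 was called (95% interval 0.51 to 3.23, adjusted p = 0.0279, 3.65-fold). The call was lost with replicate number as a block (difference 1.68, adjusted p = 0.0528), when any 1 of BP1+ 1, BP1+ 2, BP1+ 4, CD31+ 1 or CD31+ 3 was left out (1.48 to 1.88, adjusted p from 0.0535 to 0.0949), and after a second quantile normalization (1.58) or cyclic loess (1.28), and when the test asked for a difference beyond 1. The second probe set, 1459772_at, differed in sign: it lay at 5.08 to 5.27 on the BP1+ and at 5.26 to 6.25 on the CD31+ arrays (difference -0.62, adjusted p = 0.0538, not called), and it was below the 40th percentile on all BP1+ arrays.

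Hps5, the gene of the ruby-eye-2 mouse, was dim throughout. It read 5.58, 5.37, 5.47 and 5.35 on the BP1+ arrays, against 3.81, 4.07 and 4.65 on the CD31+ arrays. All BP1+ arrays lay above all CD31+ arrays, yet 1 array alone, BP1+ 1, exceeded its 40th percentile. The difference of 1.27 was called (95% interval 0.77 to 1.77, adjusted p = 0.00241), and no fold is given at this level. Hps5 would not be tested under a filter on dim probe sets.

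Hps6, the ruby-eye gene, was not called. Probe set 1435932_at read 6.97, 7.20, 7.27 and 7.08 on the BP1+ arrays, against 6.91, 6.38 and 7.24 on the CD31+ arrays. The groups overlapped and the difference was 0.29 (95% interval -0.22 to 0.79, adjusted p = 0.282). The BLOC-2 genes therefore gave 2 calls, both higher on the BP1+ arrays, from 1 probe set that overlapped between the groups and 1 that was dim.

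BLOC-3, the activator of the small GTPases RAB32 and RAB38, is made of the products of Hps1 and Hps4. Hps4, the light ear gene, read 8.21, 8.05, 8.40 and 8.04 on the BP1+ arrays, against 8.98, 8.93 and 9.24 on the CD31+ arrays. Both groups were tight and did not overlap. The difference of -0.88 (95% interval -1.25 to -0.50, adjusted p = 0.00351) was short of the required size, so Hps4 was not called. It was called after a second quantile normalization (-1.44) and after cyclic loess (-1.53).

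Hps1, the pale ear gene, had 4 probe sets and none was called. The brightest, 1459827_x_at, read 9.76, 10.02, 10.09 and 9.43 on the BP1+ arrays, against 9.50, 10.19 and 9.91 on the CD31+ arrays. These values overlapped, with a difference of -0.04 (95% interval -0.58 to 0.50, adjusted p = 0.883), and the suffix of the probe set marks probes that may also match other transcripts. Probe set 1448408_at lay at 7.31 to 7.56 on the BP1+ and 7.11 to 7.42 on the CD31+ arrays (difference 0.21, adjusted p = 0.263). In contrast, 1443034_at lay at 6.29 to 6.60 on the BP1+ and at 6.83 to 7.61 on the CD31+ arrays (difference -0.78, adjusted p = 0.0145), and 1459598_at at 5.50 to 6.16 on the BP1+ and at 6.53 to 6.94 on the CD31+ arrays (difference -0.78, adjusted p = 0.0146). The brighter pair of Hps1 probe sets thus overlapped between the groups and the dimmer pair did not. In the dimmer pair every BP1+ array was the lower one, as in 40% of all probe sets. Their differences of -0.78 stand beside a median of -0.31 over all probe sets. Whether the 2 pairs differ beyond that shift was not tested.

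The adaptor AP-3 sorts membrane proteins toward lysosome-related organelles, with Ap3b1 (pearl mouse) and Ap3d1 (mocha mouse) encoding its large subunits. Ap3b1 was not called. Its probe set 1450915_at read 9.29, 8.97, 8.86 and 8.53 on the BP1+ arrays, against 8.85, 7.49 and 9.54 on the CD31+ arrays. CD31+ 2 was the lowest array and CD31+ 3 the highest, and the difference of 0.29 (95% interval -0.75 to 1.32, adjusted p = 0.591) was well inside that spread. The second, 1423235_at, lay at 7.86 to 8.36 on the BP1+ and 8.16 to 8.84 on the CD31+ arrays (difference -0.22, 95% interval -0.73 to 0.29, adjusted p = 0.405), and here CD31+ 2 was the highest array.

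Ap3d1 had a bright and a dim probe set that differed. The bright one, 1417964_at, read 11.08, 10.65, 10.39 and 10.59 on the BP1+ arrays, against 10.37, 10.64 and 10.13 on the CD31+ arrays. The groups overlapped and the difference was 0.30 (95% interval -0.19 to 0.79, adjusted p = 0.249). The dim one, 1445280_at, read 6.33, 5.25, 6.09 and 5.79 on the BP1+ arrays, against 4.57, 4.31 and 4.98 on the CD31+ arrays, none of which reached its 40th percentile. Its difference of 1.24 was called (adjusted p = 0.00853), and with the hybridisation-control level as a block the difference was 1.29 and the adjusted p 0.0631, not called. The same 1.29 among the 5 low-control arrays kept the call (adjusted p = 0.0463). Of the 19 probe sets 15 would pass a filter that asks for 3 arrays above their 40th percentile, and 13 were above it on all 7 arrays.

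**Figure D2:**
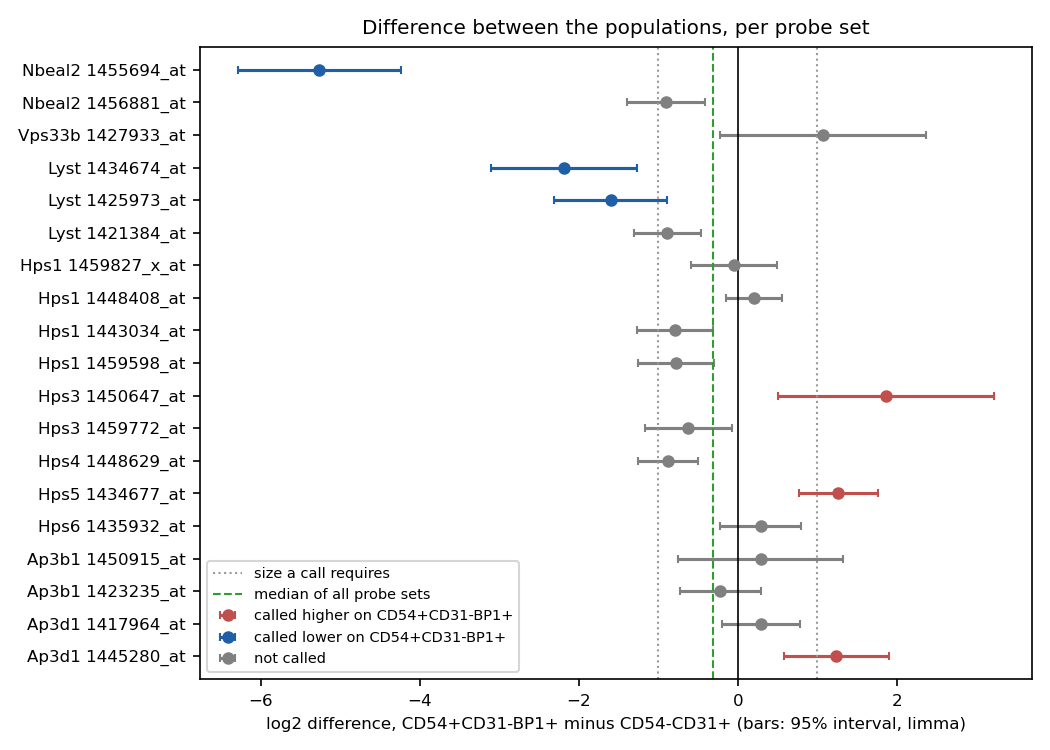
Difference of each granule probe set, CD54+CD31-BP1+ minus CD54-CD31+, on the log2 scale with its 95% interval from limma (4 and 3 arrays). Colours mark the 6 called probe sets, dotted lines the size a call requires and the dashed line the median of all probe sets, -0.31. Nbeal2 and Lyst lie to the left, Hps3, Hps5 and 1 Ap3d1 probe set to the right.

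Partner genes of the same membrane traffic machinery were taken 1 probe set per gene, with p adjusted over 18193 genes, of which 23.9% were called as higher and 14.9% as lower on the BP1+ arrays. Of 34 such genes in 5 lists, 18 were higher on the BP1+ arrays (52.9%), 4 were lower and 12 were not called, with a median difference of 1.23 against -0.27 over all genes. The count of higher genes was 10 after a second quantile normalization and 9 after cyclic loess. The background of all genes includes dim ones, so it is not matched in level to these lists. Once dim probe sets were dropped, the median over the remaining probe sets rose from -0.31 to 0.07 (40th percentile) or 0.45 (60th percentile). The share of calls that were higher rose from 58.5% to 68.9% at the latter. The lists were not tested against genes of like level, which may leave a smaller gap. Of 7 BLOC-1 subunits, which act early in dense granule and melanosome formation, 3 were higher and 0 lower (median 0.76). With probe sets whose name has an a, s or x suffix left out, 1 of 5 was higher. Snapin averaged 9.65 ± 0.34 on the BP1+ and 7.23 ± 0.89 on the CD31+ arrays (SD, n = 4 and 3, limma adjusted p = 0.00136). Bloc1s5, the gene of the muted mouse, was called at 1.80 (adjusted p = 0.0347), with arrays that overlapped between the groups. Its call was lost in 12 of 19 alternatives, among them the fit without CD31+ 2 (0.98).

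The other AP-3 subunits went both ways, with 2 of 5 higher, 2 lower and 1 not called (median -0.62). Ap3m2, a medium subunit known chiefly from neurons, averaged 9.08 ± 0.33 on the BP1+ and 6.14 ± 0.94 on the CD31+ arrays (adjusted p = 6e-04). The ubiquitous medium subunit Ap3m1 was higher by 1.25, or by 0.59 and not called after a second quantile normalization. Ap3s1, a small subunit, was lower by so little (11.39 ± 0.34 on the BP1+ and 12.40 ± 0.35 on the CD31+ arrays) that its call was lost in 9 of 19 alternatives. Ap3b2, the neuronal beta subunit, averaged 5.84 ± 0.02 on the BP1+ and 6.84 ± 0.18 on the CD31+ arrays, also at the edge of the size a call requires.

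Among Rab32, Rab38 and the genes of Rab prenylation and recycling, 4 of 6 were higher on the BP1+ arrays, 1 was lower and 1 was not called (median 1.37). After a second quantile normalization 1 was higher and 1 lower, and cyclic loess gave the same counts. Rab9, an endosome to Golgi GTPase that also binds BLOC-3, averaged 12.65 ± 0.14 on the BP1+ and 10.95 ± 0.42 on the CD31+ arrays (adjusted p = 3.9e-04). Chm, which encodes a Rab escort protein, was called at 2.15 (adjusted p = 0.0313), and that call was lost in 9 of 19 alternatives, among them the fit without CD31+ 3 (1.20). Rab38, the chocolate gene whose protein directs cargo to melanosomes and dense granules, was lower at -1.54 (adjusted p = 0.00441), or at -0.97 and not called among the 5 arrays with low hybridisation controls.

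Of 9 genes for the VPS33B partner and the tethering complexes HOPS and CORVET, 5 were higher on the BP1+ arrays, 0 lower and 4 not called (median 1.37). After a second quantile normalization 2 were higher and 1 lower, and cyclic loess gave the same counts. When the test asked for a difference beyond 1, 0 were called. Vps16 averaged 8.87 ± 0.30 on the BP1+ and 6.40 ± 1.68 on the CD31+ arrays (adjusted p = 0.0123). CD31+ 3 was the lowest, at 4.66, and without it the difference was 1.61 in place of 2.48, still called (adjusted p = 0.0125). The Vps16 call was lost in 2 of 18 alternatives. Vps33a, the paralogue of Vps33b that is mutated in the buff mouse, was higher by 1.77 (adjusted p = 0.00782), or by 0.88 and not called among those 5 arrays. Of 7 other BEACH domain genes 4 were higher, 1 lower and 2 not called (median 1.33). Nbeal1, the closest relative of Nbeal2 by name, took the opposite direction from Nbeal2: it averaged 9.09 ± 0.45 on the BP1+ arrays and 5.27 ± 0.50 on the CD31+ arrays (adjusted p = 2.87e-05), where it was below the 40th percentile on all 3. Lrba was higher by 2.23, and Wdfy4 was lower, at -2.38.

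The genes for what the granules carry and how they are released differed in the other direction. Of 35 genes in 4 lists, 29 were lower on the BP1+ arrays (82.9%), 2 were higher and 4 were not called, with a median of -3.72. The lists hold platelet genes that earlier results of these data already showed, so their direction is no independent evidence. The megakaryocyte markers above moved with these genes. Of 14 alpha granule cargo and membrane genes 12 were lower (median -4.72). Ppbp, a platelet chemokine, read 4.30, 4.24, 3.75 and 10.19 on BP1+ 1 to 4, against a CD31+ mean of 14.21 ± 0.12, and Mmrn1, which encodes the factor V carrier multimerin, averaged 5.61 ± 0.75 on the BP1+ and 13.13 ± 0.18 on the CD31+ arrays. Sparc, a matrix protein of stroma that platelets also store, was higher, at 14.13 ± 0.15 on the BP1+ and 7.77 ± 1.26 on the CD31+ arrays (adjusted p = 2.36e-05).

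Of 7 genes for dense granule contents and membrane 5 were lower and 0 higher (median -1.53). The serotonin carrier Slc6a4 averaged 5.78 ± 0.52 on the BP1+ and 12.60 ± 0.27 on the CD31+ arrays (adjusted p = 9.16e-07). Slc18a2, which loads monoamines into granules, averaged 3.62 ± 0.11 on the BP1+ and 8.47 ± 0.76 on the CD31+ arrays (adjusted p = 8.93e-06). Of 8 granule release genes 7 were lower (median -4.32), led by Rab27b at -6.74 (adjusted p = 2.66e-07). Sytl4, which encodes the RAB27 effector granuphilin, was next at -5.87, but its other probe set gave -0.78. That one was used when probe sets with an a, s or x suffix in their name were left out. Of 6 transcription regulators 5 were lower (median -3.74), among them Nfe2 at -6.43 and Gata1 at -5.76, both needed for megakaryocyte maturation, while Runx1 was higher by 3.85. The granule formation genes thus had 2 of 10 members lower and 2 higher on the BP1+ arrays. Over all genes 14.9% were lower and 23.9% higher. Of the cargo, release and regulator genes 29 of 35 were lower. That contrast is between gene lists chosen with earlier results of these data known, and it was not tested.

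**Figure D3:**
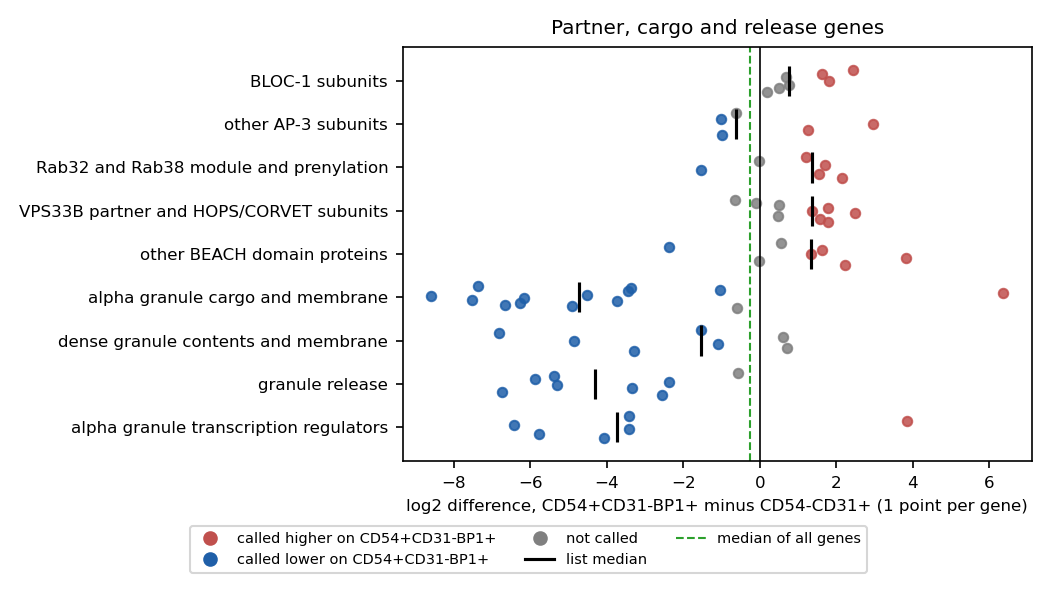
Difference of each gene of the 9 partner lists, CD54+CD31-BP1+ minus CD54-CD31+, on the log2 scale, 1 probe set and 1 point per gene. Black ticks are list medians and the dashed line is the median of all genes, -0.27. Of the first 5 lists, of membrane traffic genes, all medians but that of the other AP-3 subunits (-0.62) lie right of it. In these lists 4 genes were called lower. The last 4 lists, of cargo, release and regulators, lie mostly left, with Sparc and Runx1 called higher.

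For 3 members a protein-coding gene has an annotated span that reaches into the 250 bases before their own start, and these neighbours were chosen after their values were seen. Ccdc12, beside Nbeal2 on the opposite strand, read 11.83, 12.07, 12.17 and 11.62 on the BP1+ arrays, against 12.85, 12.77 and 13.18 on the CD31+ arrays. It was lower on the BP1+ arrays, by much less than Nbeal2 (difference -1.01, limma adjusted p = 0.00289). That difference lay at the edge of the size a call requires. Gtf2h1, beside Hps5 on the opposite strand, was higher at 9.14 ± 0.09 on the BP1+ arrays against 7.89 ± 1.17 on the CD31+ arrays (difference 1.25, adjusted p = 0.0436), with CD31+ 2 at 9.23 among the BP1+ values. Srrd, beside Hps4, stood at 0.57 (limma adjusted p = 0.0511), of other sign than Hps4 and not called. Over all genes 38.8% were called, and whether neighbours move together was not tested.

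**Figure D4:**
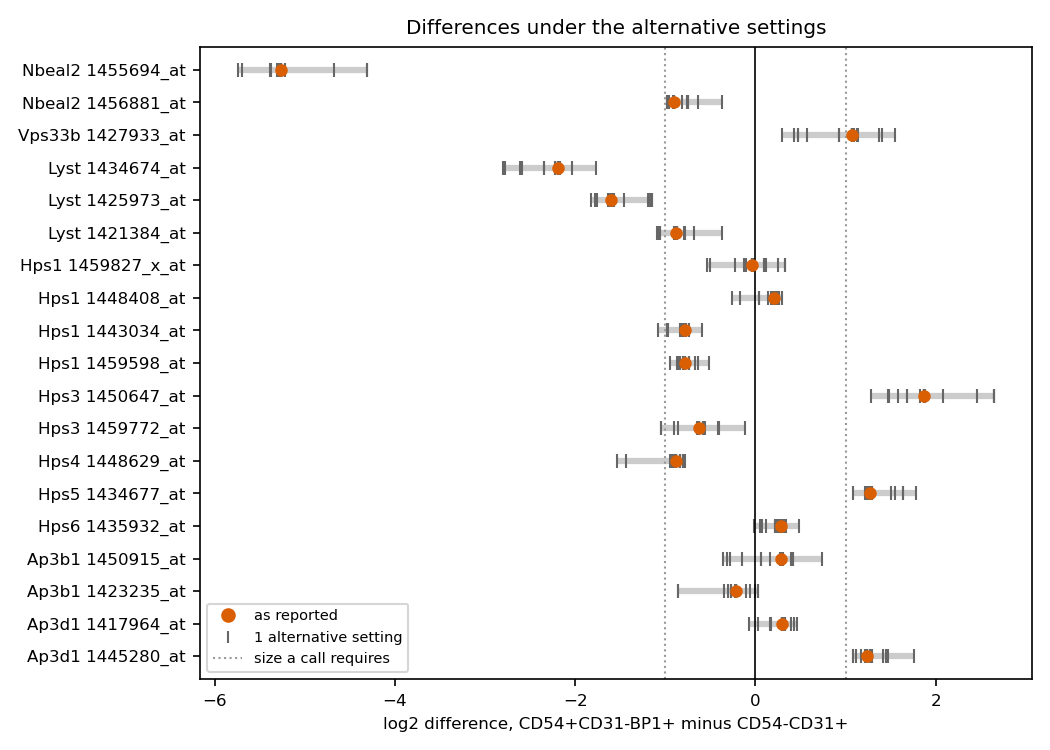
Differences of the 19 granule probe sets under the alternative settings, CD54+CD31-BP1+ minus CD54-CD31+, on the log2 scale. Orange points are the values reported and grey ticks the values under 1 alternative each. Nbeal2 1455694_at stays between -5.74 and -4.30, and the Hps1, Hps6, Ap3b1 and Ap3d1 probe sets near 0 cross it.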

How the data were processed

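Per the labels, RNA from sorted cells was amplified before hybridisation. Per the submitters' processing notes, the deposited log2 values were made by the authors with Affymetrix Expression Console 1.1 and RMA (background correction, quantile normalization, probe set summary). Which arrays were normalized together is not given in the sources used here. No 2 arrays were copies of each other: a pair shared 94 to 716 identical values. The labels do not tie replicates to separate mice or sorts: the p-values cover the spread among these arrays, which may be technical, and the number of arrays limits precision.

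Symbols came from the platform annotation: 34945 probe sets had 1 symbol, 932 several and 9160 none, and 64 controls were set aside. Differences were fitted with limma 3.58.1 in R 4.3.3 (lmFit, eBayes, no covariates) to 45037 probe sets without a filter, and to 18193 genes by the probe set of highest mean, with Benjamini-Hochberg adjustment over each table. The fit was tested on simulated data.

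The members and lists were chosen with earlier results of these data known. Named partner genes were up to 2 called genes per list and direction with the largest differences. Of 71 partner genes 69 matched. The labels do not say whether replicate numbers pair the samples. Same-numbered arrays deviated from their group means with correlations of -0.11, -0.01 and 0.10, which cannot show whether they share a mouse or sort. Alternatives were filters, other normalizations, variance models and call rules, blocks, and arrays left out. Neighbours were sought in the RefSeq table of GRCm38.p6.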

Additional observations from a re-analysis of the deposited data

Results flagged for a closer look

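In the BP1+ group of 4, a lone array was sought among the 19 granule probe sets and the named partner genes, 43 in all, by the gap to the nearest array over the whole range, at Dixon's 95% critical value. Chance flags about 1 in 20 such groups. Nbeal2 1455694_at was flagged at 0.863, with BP1+ 3 at 5.11 below 5.27 to 5.30, a gap that is small beside the difference from the CD31+ arrays. Ppbp was flagged at 0.914, with BP1+ 4 at 10.19 above 3.75 to 4.30 on the other BP1+ arrays. In Nbeal2 the array BP1+ 4 read 5.28, within the range of the others.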

How the results depend on the processing

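Of the granule probe sets, Nbeal2 1455694_at kept its direction and its call under all 19 alternatives (-5.74 to -4.30). Over the 19 probe sets, 304 of the alternative values kept direction and side of the threshold, 15 lost the call, 15 gained one and 16 changed sign, while of the named partner genes' values 401 kept both and 53 lost the call. The cause was not tested, except that filters and treat, which asks for a difference beyond 1, call fewer by construction. Dim probe sets gave no value under the filters. Granule probe sets called higher were 3 as reported, 1 with a filter at the 60th percentile and 0 with treat. Those called lower were 3 as reported, 5 after a second quantile normalization, 8 by adjusted p alone, 1 with treat and 5 among the arrays with low hybridisation controls. Granule genes called higher were 2 as reported, 1 with either filter, 1 after a second quantile normalization or cyclic loess, 0 with treat, 1 where the probe sets of a gene were averaged and 1 to 3 with 1 array left out.

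Signs changed in probe sets near 0. For Hps1 1459827_x_at the difference was 0.090 with replicate number as a block, 0.33 with the hybridisation-control block and among the low-control arrays, 0.25 without BP1+ 4 and CD31+ 2, and -0.23 to 0.12 with 1 array left out. For Hps1 1448408_at it was -0.26 after a second quantile normalization and -0.17 after cyclic loess. For Hps6 it was -0.019 after a second quantile normalization. For Ap3b1 1450915_at it was -0.31 after a second quantile normalization, -0.36 after cyclic loess, -0.15 without BP1+ 4 and CD31+ 2, and -0.28 to 0.74 with 1 array left out. For Ap3b1 1423235_at it was 0.033 with the hybridisation-control block and among the low-control arrays, and for Ap3d1 1417964_at -0.071 after cyclic loess.

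Membrane traffic partners called higher were 18 as reported, 10 after a second quantile normalization, 9 after cyclic loess and 6 with treat. Those called lower were 4 as reported, 0 with treat, 1 with the hybridisation-control block, 2 among the low-control arrays and 2 to 4 with 1 array left out. These partner counts under alternatives were added after seeing the data. Over all probe sets 7796 were higher and 5520 lower as reported (58.5% of calls higher). Treat gave 3379 higher and 1449 lower (70.0%), adjusted p alone gave 16034 lower (37.2% higher), and the filter at the 60th percentile gave 3153 lower (68.9% higher). The median of all probe sets was -0.31 as deposited, -0.18 when quantile normalized a second time and -0.03 with cyclic loess. The labels do not say what arrays of the same replicate number share. With replicate number as a block the counts were 7165 and 5333 over all probe sets, 2 and 3 over the granule probe sets and 2 and 2 over the granule genes.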
